A study of Homo sapiens with 12 samples.

Results

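The mucin genes MUC1, MUC3A, MUC4, MUC5B, MUC12, MUC13, MUC15, MUC16, MUC17 and MUC20, whose proteins carry dense O-glycans, were followed in HA22T and PLC5 cells, which are human hepatocellular carcinoma (HCC) cell lines. The members were set by name, and their probes were found through the RefSeq transcript printed for each probe. Of the 10 genes, 8 had a probe, with 16 probes among the 50599 on the array, and MUC3A and MUC20 had no matched probe and were not analysed here. MUC1 had 2 probes, MUC4 had 4, MUC12 had 3, MUC16 and MUC17 had 2 each, and MUC5B, MUC13 and MUC15 had 1 each.

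The 4 groups were HA22T siControl, HA22T siGALNT1, PLC5 siControl and PLC5 siGALNT1, with 3 arrays in each. All cells grew in DMEM with 10% FBS and received 10 nM of siRNA with RNAiMAX, and RNA was taken after 48 h. siControl was a non-targeting siRNA, and siGALNT1 was a pool of siRNAs against GALNT1, one of the GalNAc-transferases. Each line stands for 1 tumor-derived culture, the labels do not say whether the 3 samples of a group were separate cultures, and p-values here measure only the spread between these samples. Each level below is a log2 signal relative to the 75th percentile of its own array, so a difference of 1 is a 2-fold change of signal. Levels of different probes are not read as relative amounts of RNA. Levels summed over a list of markers are read between groups, not between lists.

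Mucin-type O-glycosylation starts in the Golgi, when a GalNAc-transferase such as GALNT1 puts GalNAc on a serine or threonine, and other enzymes then extend the sugar. Mucins hold long repeats rich in these residues, and they are either anchored in the cell membrane, as MUC1, MUC4, MUC12, MUC13, MUC15, MUC16 and MUC17 are, or secreted to form mucus gels, as MUC5B is. Normal hepatocytes make little mucin, whereas bile duct and gut epithelia make it in quantity.

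Promoter sequences are shown for MUC1 and MUC13, the members of the RefSeq promoter table whose probes all separated the lines in the same direction. Each is the 250 bases before the start site in GRCh38.p14, on the minus strand, at chr1:155192916-155193165 for MUC1 and chr3:124934752-124935001 for MUC13. Capitals mark the motifs found.
MUC1: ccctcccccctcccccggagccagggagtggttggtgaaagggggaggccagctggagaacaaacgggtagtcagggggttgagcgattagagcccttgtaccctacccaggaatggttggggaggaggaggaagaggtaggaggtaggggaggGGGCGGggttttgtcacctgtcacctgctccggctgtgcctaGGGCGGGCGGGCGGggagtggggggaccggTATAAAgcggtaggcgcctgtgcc
MUC13: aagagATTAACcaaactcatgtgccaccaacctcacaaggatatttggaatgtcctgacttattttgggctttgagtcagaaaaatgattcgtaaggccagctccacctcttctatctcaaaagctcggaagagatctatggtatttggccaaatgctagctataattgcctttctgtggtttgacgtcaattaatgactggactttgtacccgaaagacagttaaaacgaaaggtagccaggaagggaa
The motifs searched on both strands were the TATA box TATAAA, the GC box GGGCGG, the STAT site TTCNNNGAA, the HNF1 motif GTTAAT and the E-box CACGTG. The MUC1 window held 1 TATA box, which began 24 bases before the start, and 4 GC boxes, of which 3 overlapped one another. The MUC13 window held 1 HNF1 motif, 245 bases before the start, where the printed strand reads ATTAAC and the opposite strand GTTAAT. Of 35093 promoters of this length, 10.7% held the TATA box, 42.6% the GC box and 6.23% the HNF1 motif. The STAT site was in 6.57% and the E-box in 6.34%, and neither was in these windows. MUC3A, MUC4, MUC12, MUC16 and MUC17 had entries too, and MUC5B, MUC15 and MUC20 had none. A match of letters is a description of the window, and binding was not measured.

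The arrays were checked for signal first. Of the 58717 spots on an array, 36679 to 48873 had signal well above background, and none was saturated. GALNT1 levels were lower with siGALNT1 in both lines. In HA22T the difference was -4.75 for probe A_23_P306105 and -5.10 for A_33_P3210218, with adjusted p of 0.0117 and 0.0303 (limma). In PLC5 the differences were -3.03 and -3.72, or 8.18-fold and 13.2-fold lower, and the groups did not overlap. Unadjusted p was 3.22e-05 and 3.9e-05 there, and adjusted p was 0.743 for both probes (limma). Markers of the labelled tissue differed between the lines. Of 10 hepatocyte markers, 8 were higher in PLC5 siControl than in HA22T siControl arrays, beside 11.8% of all counted probes. TTR (transthyretin) was not well above background on any HA22T siGALNT1 array. All 6 HA22T arrays and replicate 1 of both PLC5 groups lay on slide 1, and the other 4 PLC5 arrays lay on slide 2. Differences between the lines of the mucins that passed are therefore also given with slide as a block and, for 1 PLC5 array per group, within slide 1.

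Signal of the mucin probes ranged from strong to absent. Of the 16 probes, 8 were well above background on all 12 arrays, and they belonged to MUC1, MUC4, MUC5B, MUC13 and MUC15. The MUC16 probe A_23_P5211 was well above background on no array, and its 12 levels lay between -8.88 and -6.22. A comparison counted a probe if 3 or more of its 6 arrays had signal well above background there, which left 15 of the 16 probes counted at least once. Lack of array signal in bulk RNA cannot tell fewer expressing cells from less RNA per cell.

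**Figure D1:**
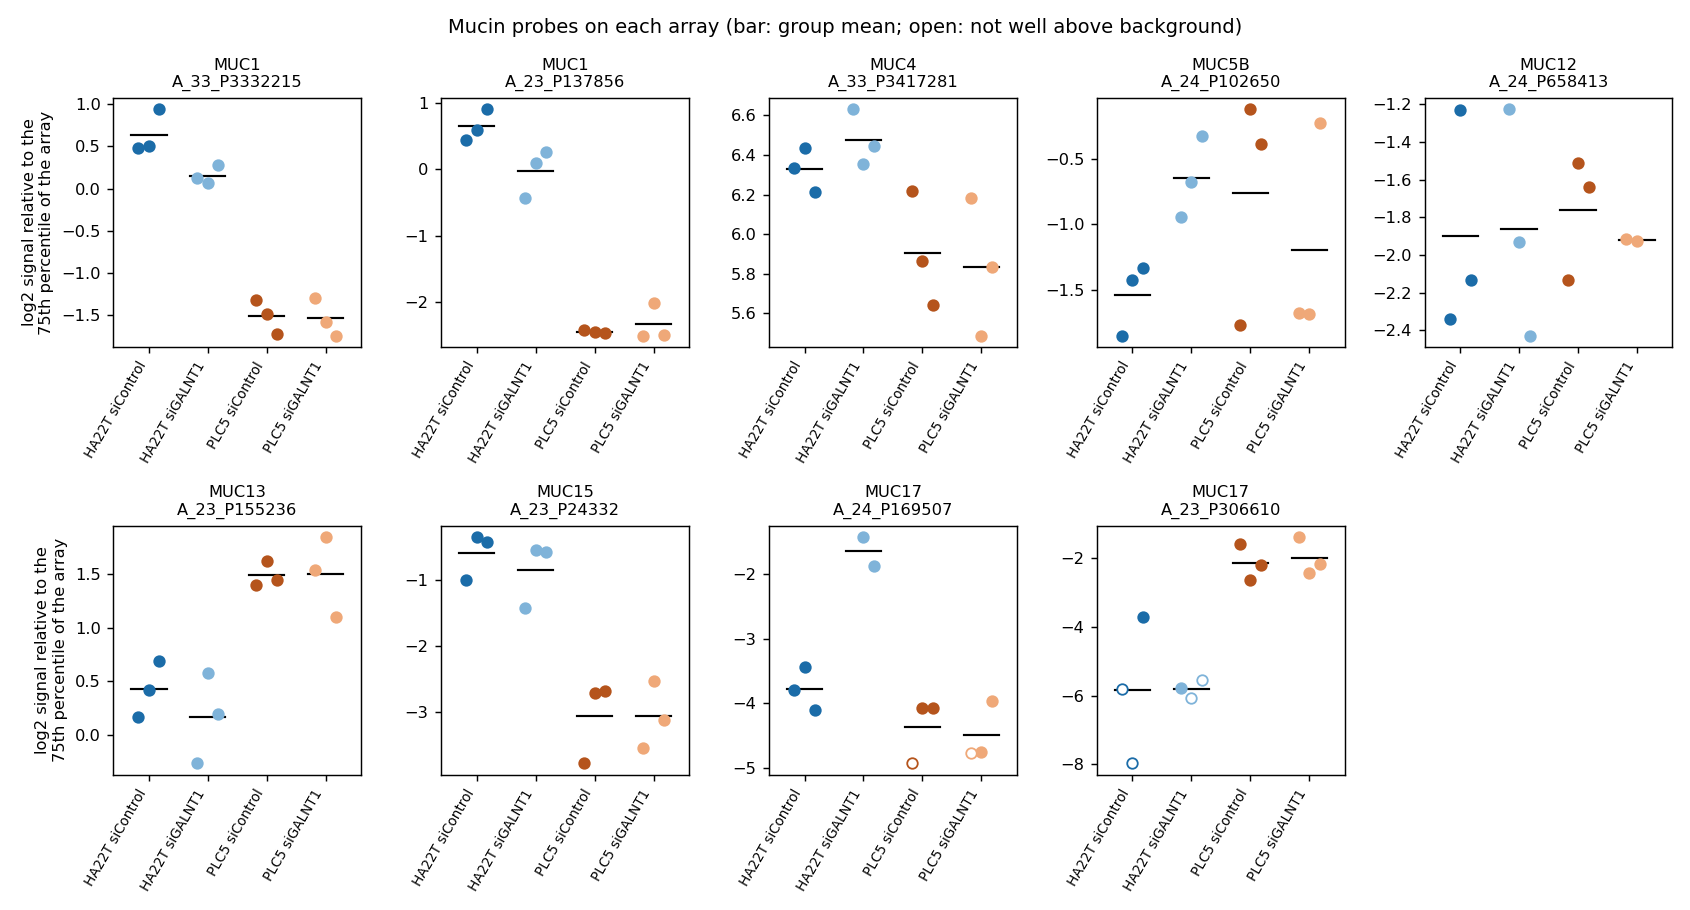
Log2 signal relative to the 75th percentile of the array (vertical axis, with its own scale in each panel) for 9 mucin probes in the 4 groups. Each point is 1 array, open points were not well above background, and the bar is the mean of the group. MUC1 and MUC15 lay lower and MUC13 higher on PLC5 arrays, while MUC17 A_23_P306610 was higher on PLC5 arrays and MUC17 A_24_P169507 was highest on HA22T siGALNT1 arrays.

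The comparison between the lines asked which mucins the 2 HCC cultures make to different extents. MUC1 and MUC15 were lower and MUC13 was higher in PLC5 than in HA22T, with either siRNA. The 2 probes of MUC17 passed in opposite directions on siGALNT1 arrays, and MUC4, MUC5B and MUC12 did not pass the test in either comparison. MUC16 did not pass on siControl arrays and was not counted on siGALNT1 arrays. On siControl arrays 5 of 14 counted mucin probes, from 4 of 8 genes, had an adjusted p below 0.05 (limma with Benjamini-Hochberg adjustment), 2 of them higher and 3 lower in PLC5. Over all counted probes 23.8% did, 11.8% higher and 12% lower, so the share among the mucin probes was within 2 probes of the background. On siGALNT1 arrays 6 of 12 counted probes, from 4 of 7 genes, passed, 2 higher and 4 lower, where the background was 25%, 14% higher and 11% lower. The 3 arrays of one line lay apart from those of the other for 7 of 14 mucin probes on siControl arrays, beside 42.3% of all probes, and for 6 of 10 on siGALNT1 arrays, beside 39.9%. The criterion of the study was a change of at least 1.5-fold with p below 0.05, taken as unadjusted because the methods name no adjustment. This criterion was met by 5 and 7 mucin probes in these comparisons and by 33.7% and 36.3% of all counted probes. In the fit that held slide as a block, 4 mucin probes passed on siControl arrays, beside 19.3% of all counted probes, and 6 on siGALNT1 arrays, beside 22.1%.

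MUC1, a transmembrane mucin of glandular epithelia whose cytoplasmic tail takes part in signaling, was read by 2 probes, and both had signal on every array. With probe A_33_P3332215, the HA22T siControl arrays had levels of 0.48, 0.50 and 0.94, and the HA22T siGALNT1 arrays 0.12, 0.07 and 0.28. The PLC5 siControl arrays had -1.32, -1.48 and -1.71, and the PLC5 siGALNT1 arrays -1.30, -1.57 and -1.74. All 6 PLC5 arrays were thus below all 6 HA22T arrays. PLC5 minus HA22T was -2.15 on siControl arrays (95% interval -2.65 to -1.64, adjusted p = 2.67e-05, limma), which is 4.42-fold lower. It was -1.69 on siGALNT1 arrays (-2.20 to -1.19, adjusted p = 0.00019, limma).

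The other MUC1 probe, A_23_P137856, separated the lines further. Its levels were 0.45, 0.60 and 0.91 in HA22T siControl and -0.43, 0.09 and 0.26 in HA22T siGALNT1 arrays. In PLC5 they were -2.43, -2.46 and -2.47 with siControl and -2.51, -2.02 and -2.51 with siGALNT1. Again no PLC5 array reached an HA22T array. The line difference was -3.11 with siControl and -2.32 with siGALNT1, or 8.63-fold and 5.00-fold lower in PLC5, with adjusted p of 2.71e-06 and 3.22e-05 (limma). Both probes therefore ordered the groups as HA22T siControl, HA22T siGALNT1 and then the PLC5 groups, and the PLC5 groups overlapped. With slide as a block the 4 MUC1 differences between the lines lay between -3.18 and -1.48, and within slide 1 between -3.08 and -1.45.

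MUC15, another transmembrane mucin, also had signal on all 12 arrays with its single probe A_23_P24332. The HA22T levels were -0.998, -0.34 and -0.42 with siControl and -1.43, -0.54 and -0.56 with siGALNT1. The PLC5 levels were -3.79, -2.72 and -2.69 with siControl and -3.56, -2.53 and -3.13 with siGALNT1. The lines did not overlap, and replicate 1 was the lowest array in each of the 4 groups. PLC5 was 5.58-fold lower on siControl arrays, with a log2 difference of -2.48 (95% interval -3.33 to -1.63, adjusted p = 0.000501, limma). On siGALNT1 arrays the difference was -2.23 (-3.08 to -1.38, adjusted p = 0.00115, limma). The differences were larger with slide as a block, at -3.09 and -2.84, and within slide 1 they were -3.20 and -2.72.

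MUC13, a transmembrane mucin of the gut and airway surface with an EGF-like part, was the mucin with a single probe that was higher in PLC5. Probe A_23_P155236 had levels of 0.16, 0.42 and 0.68 in HA22T siControl and -0.27, 0.57 and 0.19 in HA22T siGALNT1 arrays. In PLC5 its levels were 1.40, 1.63 and 1.45 with siControl and 1.54, 1.85 and 1.101 with siGALNT1. Every PLC5 array was above every HA22T array. The line difference was 1.07 on siControl arrays (95% interval 0.45 to 1.68, adjusted p = 0.0155, limma) and 1.33 on siGALNT1 arrays (0.72 to 1.95, adjusted p = 0.00433, limma), or 2.10-fold and 2.52-fold. On siControl arrays the call was lost with slide as a block, where the difference was 1.05 and the adjusted p was 0.0595, while on siGALNT1 arrays it was 1.31 with an adjusted p of 0.021. Within slide 1 the differences were 0.98 and 1.38. It was also lost without HA22T siControl replicate 1, where the adjusted p was 0.0613, and without PLC5 siControl replicate 2, where it was 0.0578 (limma).

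MUC17, a membrane mucin of the intestinal brush border, could not be given 1 direction. Its main probe A_24_P169507, the one with the higher mean over the 12 arrays, had levels of -3.80, -3.44 and -4.11 in HA22T siControl and -1.42 and -1.87 on the 2 usable HA22T siGALNT1 arrays, since the spot of replicate 1 was flagged as non-uniform and left out. The PLC5 levels were -4.93, -4.08 and -4.08 with siControl and -4.78, -4.76 and -3.96 with siGALNT1. This probe was therefore highest in HA22T siGALNT1, and the other 3 groups lay close together. PLC5 minus HA22T was -0.58 with siControl (adjusted p = 0.26, limma) and -2.85 with siGALNT1 (adjusted p = 0.000212, limma), the latter resting on those 2 arrays. The differences were -1.003 and -3.28 with slide as a block, and -1.15 and -3.13 within slide 1. With normexp background correction that on siGALNT1 arrays was -1.96.

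The second MUC17 probe, A_23_P306610, ran the other way. In PLC5 it had levels of -1.59, -2.62 and -2.19 with siControl and -1.37, -2.42 and -2.15 with siGALNT1, all well above background. In HA22T it had levels of -5.81, -7.97 and -3.70 with siControl and -5.76, -6.07 and -5.55 with siGALNT1, and 1 array of each group was well above background. The PLC5 arrays were above all HA22T arrays. The difference was 3.69 on siControl arrays (95% interval 1.99 to 5.39, adjusted p = 0.00416, limma) and 3.81 on siGALNT1 arrays (2.11 to 5.52, adjusted p = 0.00348, limma). A block for slide gave 4.27 and 4.39, and slide 1 alone 4.24 and 4.42. Since 2 of 3 HA22T arrays per group were not well above background, the size of the difference was not firmly measured, and normexp background correction gave 1.90 and 2.01 with adjusted p of 0.00131 and 0.000901 (limma). The siControl difference was 2.62 without HA22T siControl replicate 2 and 4.75 without replicate 3, the lowest and the highest of that group. The mean of both MUC17 probes gave 1.56 and 1.17, with adjusted p of 0.0549 and 0.136 (limma), so the sign for MUC17 as a gene depended on how its probes were combined. In the 1.17, HA22T siGALNT1 replicate 1 entered through A_23_P306610 alone, since the spot of the main probe was flagged.

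**Figure D2:**
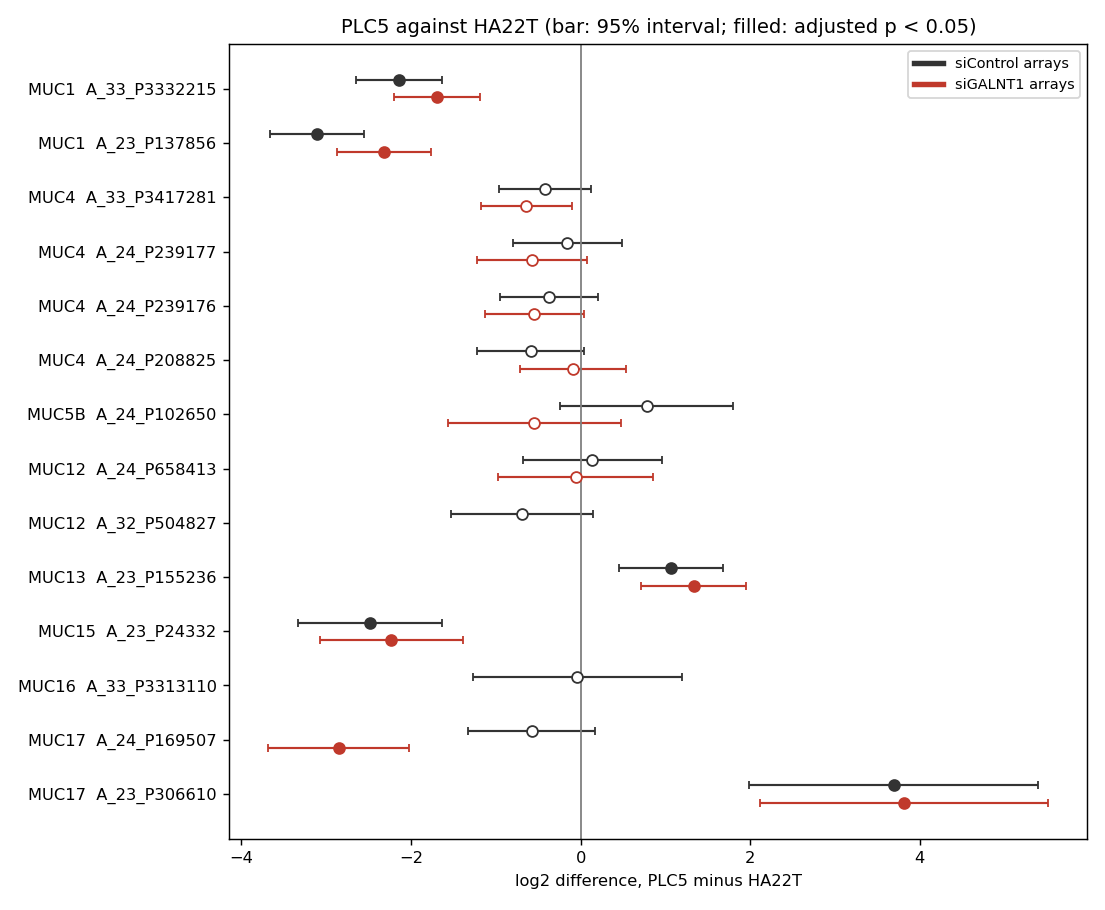
Log2 difference between PLC5 and HA22T (horizontal axis, positive where PLC5 was higher) of each counted mucin probe, on siControl (black) and siGALNT1 (red) arrays, 3 arrays per group except MUC17 A_24_P169507 in HA22T siGALNT1 and MUC12 A_24_P658413 in PLC5 siGALNT1, which had 2. Bars are 95% intervals of limma and filled points passed an adjusted p of 0.05. MUC1 and MUC15 lay left of 0, MUC13 right of it, and the 2 probes of MUC17 on opposite sides, at -0.58 and 3.69 on siControl arrays.

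MUC4, a large membrane mucin that binds the receptor ERBB2, was read by 4 probes. The main one, A_33_P3417281, had signal on all 12 arrays, with levels of 6.33, 6.43 and 6.21 in HA22T siControl and 6.63, 6.35 and 6.44 in HA22T siGALNT1 arrays. In PLC5 the levels were 6.22, 5.86 and 5.64 with siControl and 6.18, 5.49 and 5.83 with siGALNT1. PLC5 arrays tended to the lower side, and on siGALNT1 arrays the lines did not overlap. The line difference was -0.42 with siControl (95% interval -0.96 to 0.12, adjusted p = 0.263, limma) and -0.64 with siGALNT1 (-1.18 to -0.10, adjusted p = 0.0801, limma). It shrank with slide as a block to -0.09 and -0.31. The other 3 MUC4 probes differed by between -0.59 and -0.16 on siControl arrays and between -0.58 and -0.09 on siGALNT1 arrays, and none passed. Group means of A_24_P239177 and A_24_P239176 lay between 4.56 and 6.02. Those of A_24_P208825 lay between -4.42 and -3.82, with signal well above background on 10 of the 12 arrays. The MUC4 probes thus gave no single level for the gene.

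MUC4 was also the member chosen for a search of like patterns. Over the 12 arrays and 14351 genes with a value on each, the levels of CCDC57, FAM222B and KRTAP10-10 were most like those of probe A_33_P3417281, with Pearson r of 0.975, 0.963 and 0.962. The 12 points share their slides, lines and siRNAs, and the correlations are given as a description.

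MUC5B, the gel-forming mucin of airway and bile, was the only secreted member and had signal on all 12 arrays with probe A_24_P102650. The HA22T levels were -1.85, -1.43 and -1.34 with siControl and -0.94, -0.68 and -0.32 with siGALNT1. The PLC5 levels were -1.77, -0.12 and -0.39 with siControl and -1.68, -1.69 and -0.22 with siGALNT1. PLC5 arrays therefore spread over more than 1.4 log2 units within each group, where the slide 1 arrays were at -1.77 and -1.68. The line difference was 0.78 on siControl arrays (95% interval -0.24 to 1.80, adjusted p = 0.271, limma) and -0.55 on siGALNT1 arrays (-1.57 to 0.47, adjusted p = 0.43, limma). With slide as a block these became 0.03 and -1.29, and within slide 1 they were -0.23 and -1.03.

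MUC12 and MUC16, membrane mucins of the colon and of ovarian and ocular epithelium, had probes with weak signal. The main MUC12 probe A_24_P658413 was well above background on every array with a usable spot, 11 in all. Its levels lay between -2.43 and -1.23, and the lines overlapped, with differences of 0.14 (95% interval -0.68 to 0.96) and -0.06 (-0.97 to 0.86). Probe A_32_P504827 was well above background on 2 HA22T siControl arrays and 1 PLC5 siControl array. The groups did not overlap there, with a difference of -0.70 (95% interval -1.53 to 0.14, adjusted p = 0.229, limma). With slide as a block it was -0.29, and on siGALNT1 arrays this probe was not counted. The MUC12 probe A_33_P3352038 was not well above background on any HA22T array. It was well above background on 1 of 3 PLC5 siControl arrays, was not counted in either comparison of the lines, and no fold is given. Its mean level was -6.91 in HA22T siControl and -5.36 in PLC5 siControl arrays, so the MUC12 probes gave no single direction. Bounds written below as at least a fold compare the mean of the brighter group with a level set for the dim group. Per dim array that level was the higher of its own signal and the lowest signal of any probe well above background there. The MUC16 probe A_33_P3313110 had levels between -6.10 and -3.85 in HA22T and between -6.92 and -4.33 in PLC5, and it was well above background on 2 and 3 of the 6 arrays. Its line difference on siControl arrays was -0.04 (95% interval -1.27 to 1.19), an interval too wide to exclude a 2-fold difference either way. On siGALNT1 arrays, where too few arrays had signal for a test, the groups did not overlap and the difference was -1.31, or -0.49 with normexp background correction.

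The comparison of siGALNT1 with siControl asked whether lowering the initiating enzyme changed transcripts of the proteins that carry its sugar. No mucin probe passed an adjusted p of 0.05 (limma) in either line, among 12 counted probes in HA22T and 14 in PLC5. The background was 0.00826% in HA22T, where 3 of 36331 probes passed, and 0% in PLC5. Since GALNT1 itself did not pass in PLC5, the lack of calls there does not show that mucin levels were unchanged. At an unadjusted p below 0.05 there were 2 mucin probes in HA22T and 1 in PLC5, where 3.62% and 1.7% of all counted probes had one. Each of these mucin probes also met the criterion of the study, which 3.41% and 1.62% of all counted probes met. The methods name several tests and do not say which the arrays used, so Student's t-test was taken here as the methods' t-test. That test counted the same numbers of mucin probes, 2 and 1, and 0 after adjustment. The median mucin difference was -0.11 in HA22T, beside -0.06 over all counted probes, and -0.02 in PLC5, beside 0.01.

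In HA22T the 2 probes were MUC17 A_24_P169507 and MUC1 A_23_P137856. The MUC17 levels, given above, were -3.80, -3.44 and -4.11 with siControl and -1.42 and -1.87 with siGALNT1. Both siGALNT1 arrays were above all siControl arrays, by a mean of 2.13 (95% interval 1.30 to 2.97, unadjusted p = 0.000147, adjusted p = 0.548, limma), or 4.39-fold. The other MUC17 probe had a difference of 0.03 in HA22T, where it was at background on 4 of 6 arrays. With normexp background correction the difference of this main probe was 1.53, and with the flagged spot kept it was 1.98. As the mean over both probes it was 0.40. In that mean HA22T siGALNT1 replicate 1 entered through the other probe alone, at -5.76, because its main spot was flagged. The 0.40 is therefore not a mean of both probes on every array.

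MUC1 levels were lower on all HA22T siGALNT1 arrays than on any HA22T siControl array with either probe. The difference was -0.49 for A_33_P3332215 (95% interval -0.99 to 0.02) and -0.68 for A_23_P137856 (-1.23 to -0.12), or 1.40-fold and 1.60-fold, and both had an adjusted p of 0.997 (limma). MUC5B moved to the other side, with all HA22T siGALNT1 arrays above all siControl arrays, a difference of 0.89 (-0.13 to 1.91) and an adjusted p of 0.997. These were the 3 of 11 counted mucin probes with 3 values per group whose groups did not overlap in HA22T. The background was 8.83%, and MUC17 could not be among them with 2 usable arrays. None of these differences passed the test over all probes.

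In PLC5 the single probe was MUC16 A_33_P3313110. Its levels were -4.33, -5.55 and -5.41 with siControl and -6.72, -6.92 and -6.07 with siGALNT1. The siGALNT1 arrays were all lower, by a mean of -1.48 (95% interval -2.71 to -0.24, unadjusted p = 0.023, adjusted p = 1.00, limma), but 3 of the 6 values were not well above background. With normexp background correction the difference was -0.19. MUC1, MUC4, MUC13 and MUC15 differed by between -0.07 and 0.11 in PLC5 over their 8 probes. The widest 95% interval among those 8 ran from -0.85 to 0.84. In PLC5 2 of 13 counted probes had groups that did not overlap, MUC16 and the MUC12 probe A_33_P3352038, beside a background of 4.11%.

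**Figure D3:**
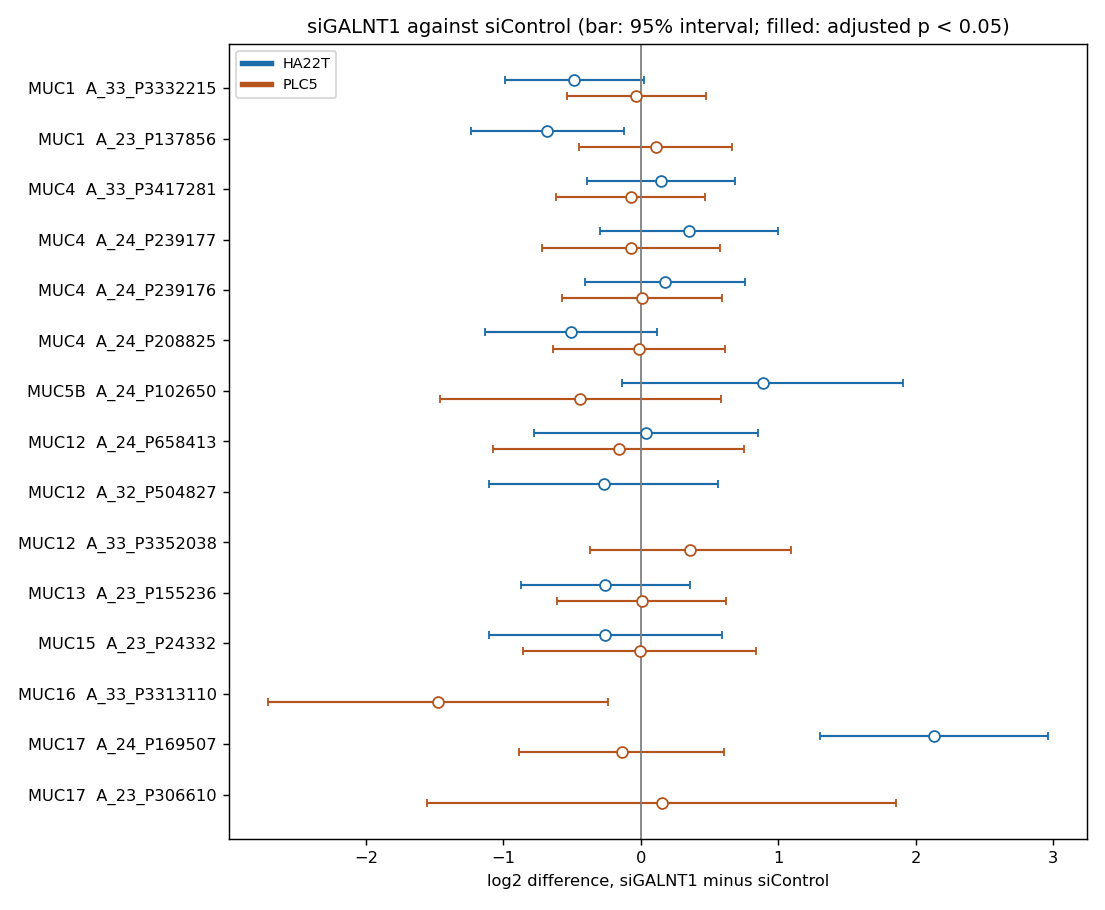
Log2 difference between siGALNT1 and siControl (horizontal axis, positive where siGALNT1 was higher) of each counted mucin probe in HA22T (blue) and PLC5 (brown), 3 arrays per group except MUC17 A_24_P169507 in HA22T siGALNT1 and MUC12 A_24_P658413 in PLC5 siGALNT1, which had 2. Bars are 95% intervals of limma. No point is filled, since none passed an adjusted p of 0.05, and MUC17 A_24_P169507 in HA22T lay farthest from 0, at 2.13.

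The siRNA effects of the lines were then compared with each other. None of 15 counted mucin probes and 0 of 39900 probes in all (0%) differed at an adjusted p of 0.05 (limma). The criterion of 1.5-fold and unadjusted p below 0.05 was met by 2 mucin probes and by 3.21% of all probes. For MUC17 A_24_P169507 the effect in PLC5 minus that in HA22T was -2.27 (95% interval -3.39 to -1.16, unadjusted p = 0.000919, adjusted p = 0.974). For MUC1 A_23_P137856 it was 0.79 (0.00 to 1.57, unadjusted p = 0.0491, adjusted p = 0.974). MUC5B gave -1.33 (-2.77 to 0.12). Its effect was 0.89 in HA22T (-0.13 to 1.91) and -0.44 in PLC5 (-1.46 to 0.58), where the groups overlapped. Within slide 1 the PLC5 effect was 0.08, so a fall of MUC5B in PLC5 was not firmly measured.

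Genes around the mucins were read from lists of other mucins, of sialomucins and mucin-like proteins, of enzymes that build mucin-type O-glycans and of genes of mucin-secreting cells. GALNT1 itself, in HA22T, was the 1 gene of these lists that passed in a comparison of siRNAs. Between the lines they differed more. Of 7 counted other mucins, MUCL1, a small mucin of the breast and salivary gland, passed with -0.999 on siControl arrays (adjusted p = 0.0189, limma), and the call was lost with slide as a block. The median of the list was 0.02, beside -0.04 over all counted probes. On siGALNT1 arrays none of the 7 passed (limma), and MUCL1 met the study's criterion there.

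Of 10 counted sialomucins and mucin-like proteins, 3 were higher and 6 lower in PLC5 siControl than in HA22T siControl arrays, where 11.8% of all counted probes were higher and 12% lower. The median was -1.63, beside -0.04 over all counted probes. CD24, a small mucin-like ligand of P-selectin, was higher by 3.22, CD164 by 1.06 over 2 usable PLC5 siControl arrays, and TMEM123 by 1.00. SELPLG, the P-selectin ligand of leukocytes, was lower at -4.11 with signal on 1 of 3 PLC5 siControl arrays, GYPC, a glycophorin of red cells, at -3.86 and MCAM, an adhesion molecule, at -3.03. On siGALNT1 arrays 3 genes of the list were higher and 6 lower, beside 14% and 11% of all counted probes, with a median of -1.34. With slide as a block CD164, CD34 and TMEM123 no longer passed on siControl arrays, nor CD164 and CD34 on siGALNT1 arrays.

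Of 26 counted enzymes 6 were higher and 3 lower in PLC5 siControl arrays, and the median was 0.02. Over all counted probes 11.8% were higher and 12% lower there. GALNT6 and GALNT4, GalNAc-transferases like GALNT1, were not well above background on any HA22T array and were at least 4.24-fold and 5.75-fold higher in PLC5. GCNT3, a mucin-type branching enzyme, was higher by 3.46. GALNT18 was lower at -4.07, GCNT1, which makes the core 2 branch, at -3.37 and B3GNT3, which extends core 1, at -1.27. GALNT18 and GCNT1 were well above background on 1 and 2 of the 3 PLC5 siControl arrays. With siGALNT1, 6 of 27 were higher and 3 lower, beside 14% and 11% of all counted probes, and the bounds for GALNT6 and GALNT4 were 3.72-fold and 4.29-fold. ST6GALNAC3 was the enzyme whose siControl call was lost with slide as a block.

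Of 11 counted genes of mucin-secreting cells 4 were higher and 2 lower in PLC5 siControl arrays, with a median of 0.72, where 11.8% of all counted probes were higher and 12% lower. AGR2, a disulfide isomerase needed to make secreted mucin, was higher by 6.85, TFF1, a trefoil peptide secreted with mucin, by 2.06 and ZG16, a goblet cell lectin, by 0.95. AGR2 was well above background on 2 HA22T siControl arrays and 1 HA22T siGALNT1 array. CREB3L1, a factor of the secretory pathway, was lower at -2.17 and TFF3, the goblet cell trefoil peptide, at -1.83. On siGALNT1 arrays 4 were higher and 3 lower, beside 14% and 11% of all counted probes, with AGR2 at 7.90, TFF1 at 2.75 and TFF2 at 1.27 above 0, and CREB3L1 at -1.79, TFF3 at -1.62 and CLCA1 at -1.27 below it. TFF3 no longer passed there with slide as a block.

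**Figure D4:**
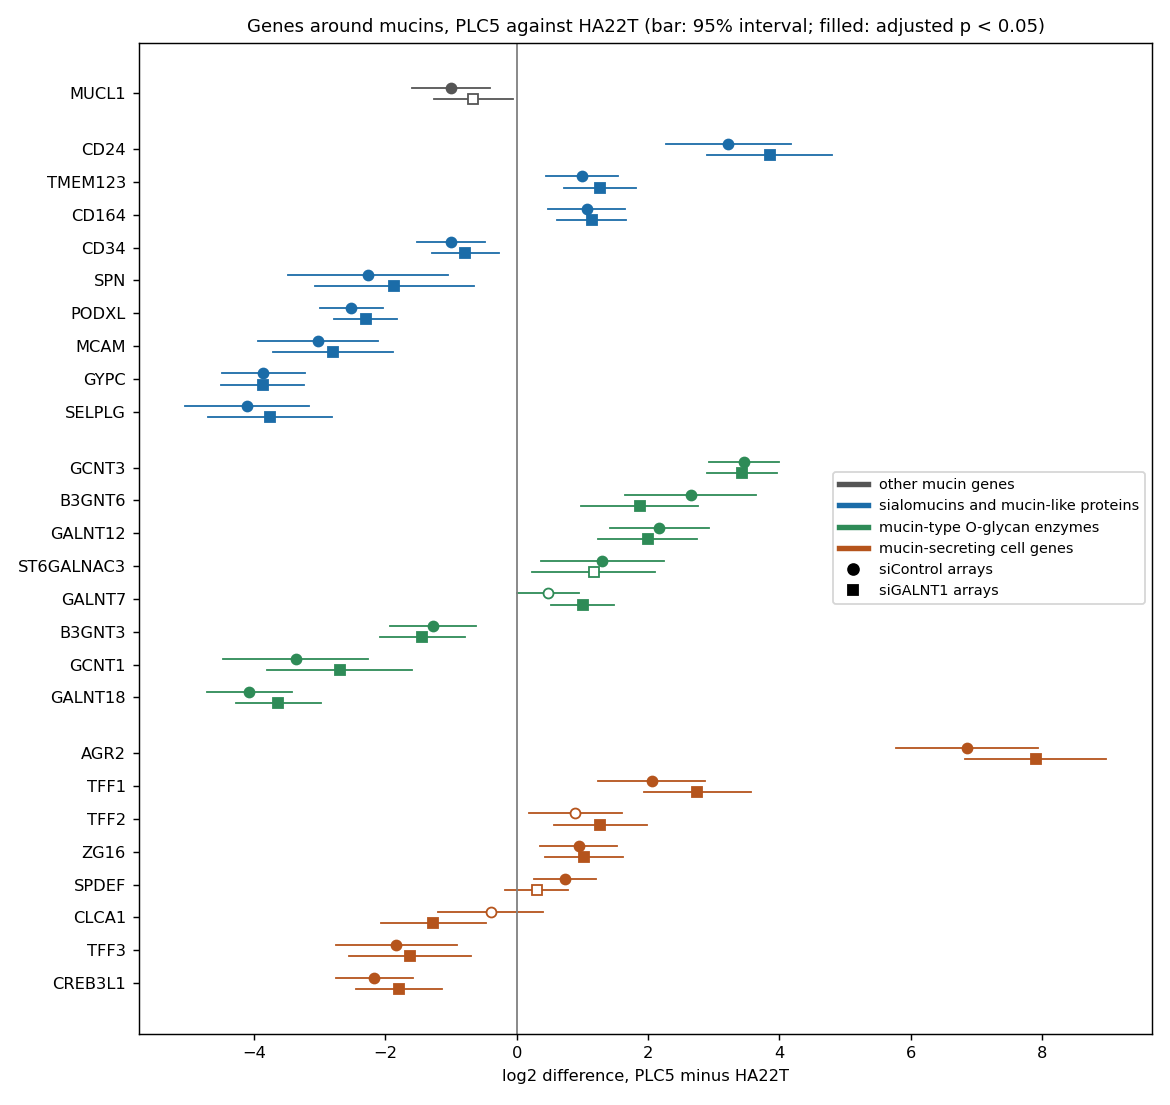
Log2 difference between PLC5 and HA22T (horizontal axis, positive where PLC5 was higher) of the listed genes that passed an adjusted p of 0.05 on siControl (circles) or siGALNT1 (squares) arrays, with limma's 95% intervals as bars and filled symbols where the test was passed. Groups held 3 arrays except PLC5 siControl for CD164 and B3GNT6 and HA22T siGALNT1 for CREB3L1, which held 2. GALNT4 and GALNT6 are left out because HA22T gave only a bound. AGR2 lay right of 0, at 6.85 and 7.90, and SELPLG and GALNT18 left of it on siControl arrays, at -4.11 and -4.07, each with a group in which 1 or 2 of 3 arrays had signal well above background.

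Markers of some other tissues also differed between the lines, and their part in the mucin results was not tested. All 4 counted markers of intestinal epithelium were higher in PLC5 siControl than in HA22T siControl arrays, beside 11.8% of all counted probes. The summed level of the list was between -3.92 and -3.33 in HA22T siControl and between 2.71 and 3.82 in PLC5 siControl arrays, and VIL1 (villin), CDH17 and LGALS4 were not well above background in HA22T siControl. In PLC5 siControl arrays the mean levels of these genes were 0.74, -1.86 and -3.76. All lay below the summed level, so the remaining marker, FABP1, held much of it. The sum is therefore not a level of the list as a whole. VIL1 was at least 78.5-fold higher in PLC5. Of 3 counted biliary markers SOX9 was higher in PLC5 by 3.22 and SPP1 lower at -1.23, a call that was lost with slide as a block, and the summed levels of the list were 7.19 to 7.67 in HA22T and 6.71 to 7.18 in PLC5. Of 3 counted mesenchymal markers VIM (vimentin) was lower in PLC5 at -5.54, with summed levels of 5.72 to 6.63 against 0.95 to 3.06. The summed hepatocyte markers were 2.73 to 3.06 in HA22T and 6.72 to 7.43 in PLC5. Of 4 blood cell markers none passed on siControl arrays (limma), and their summed levels were 4.61 to 5.46 and 4.90 to 5.55.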

How the data were processed

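Total RNA was labeled as cDNA and hybridized to one-color Agilent SurePrint arrays by the authors, who read the images with Agilent Feature Extraction 10.5.1.1. The deposited intensity values were its background-subtracted processed signals, with flags per spot, and the authors also deposited log2 values per probe, scaled to the 75th percentile of each array. Per the methods, non-uniform outlier spots were excluded. For MUC12 A_24_P658413 in PLC5, siGALNT1 minus siControl was 0.27 in the deposited log2 values. Computed here it was 0.26 with flagged spots kept and -0.16 with them left out.

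Here log2 processed signals minus the 75th percentile over all non-control spots were computed, flagged spots were dropped (489 to 3633 per array) and spots of a probe averaged. Of 50599 probes, 28174 matched a symbol by unversioned RefSeq accession in the GRCh38.p14 table. Probe coordinates came from an older genome build and were not used. The arrays gave no counts, so the number of arrays limits precision. A single model of all 4 groups, without covariates, was fitted per probe in R 4.3.3 (limma 3.58.1, lmFit, then eBayes with the prior from counted probes). Benjamini-Hochberg adjustment ran over counted probes at 0.05. A gene's main probe had the highest mean over the 12 arrays. The fit was tested on simulated data. Same-numbered HA22T arrays deviated together (r of 0.526, 0.264 and 0.338), so their numbers, taken from the labels, were treated as pairs in an alternative.

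Named were all members, GALNT1, the markers and, per list, the 3 largest rises and falls that passed. The members and lists were chosen with earlier results of these data known. Alternatives covered background correction, scaling, filters, prior, slide, pairing, test and each left-out array.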

Additional observations from a re-analysis of the deposited data

How the results depend on the processing

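The counts of mucin probes with an adjusted p below 0.05 stayed within 1.5 times under each alternative that was run, and were 0 for both siRNA comparisons and for the difference between them. Single calls were lost with slide as a block (MUC13 on siControl arrays) and by the methods' t-test, where adjusted p was 0.143 for MUC17 A_23_P306610 on siControl arrays and 0.0854 and 0.0523 for MUC13 and MUC15 on siGALNT1 arrays. MUC4 A_33_P3417281 passed on siGALNT1 arrays, with an adjusted p of 0.0316 (limma), when the percentile was taken over unflagged spots only, a setting chosen after seeing the data. The replicate block in HA22T gave 3 mucin probes past the study's criterion in place of 2, and elsewhere, where numbers gave no firm pairing, 1 in PLC5, 6 and 7 between the lines and 3 for the difference of effects. It changed no call at an adjusted p of 0.05.

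The counts past the study's criterion rested on few probes. In HA22T the count was 1 with normexp, with the percentile over unflagged spots and with a filter on all 6 arrays. In PLC5 it was 0 with normexp and with that filter. For the difference of effects it was 1 with normexp, quantile normalization, median scaling, the percentile over unflagged spots, no filter, the filter on all 6 arrays and the prior from all probes. Leaving out 1 array gave 1 to 3 in HA22T, 0 to 1 in PLC5 and 1 to 3 for the difference. The count was 1 in HA22T without HA22T siControl replicate 3 or HA22T siGALNT1 replicate 1, and 0 in PLC5 without PLC5 siGALNT1 replicate 1 or 2. For the difference it was 1 without HA22T siControl replicate 2, HA22T siGALNT1 replicate 1 or 2, PLC5 siControl replicate 2 or 3, or PLC5 siGALNT1 replicate 2.

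Most differences that changed sign were near 0. For siGALNT1 in PLC5, normexp gave 0.066 for MUC4, -0.0025 for MUC13, 0.0098 for MUC15 and 0.039 for MUC17. MUC15 there was 0.00059 with quantile normalization, 0.0053 with median scaling, 0.0034 in the deposited table and 0.00029 with the percentile over unflagged spots. MUC12 in HA22T was -0.0030 with quantile normalization and -0.024 with median scaling. With flagged spots kept, MUC12 was 0.26 for siGALNT1 in PLC5, 0.37 between the lines on siGALNT1 arrays and 0.23 for the difference of effects. In the deposited table these were 0.27, 0.35 and 0.25. With slide as a block the siControl line difference was -0.070 for MUC12 and 0.27 for MUC16. The mean over probes gave 0.039 for MUC1 and 0.0067 for MUC17 with siGALNT1 in PLC5 and 0.12 for MUC12 between the lines on siGALNT1 arrays. The exception was MUC17 between the lines, where the mean over probes turned -0.58 into 1.56 on siControl arrays and -2.85, which had passed, into 1.17 on siGALNT1 arrays. In the 1.17 and in the 0.12 for MUC12, an array with a flagged main-probe spot entered through the other probes alone. Median scaling moved the median of all counted probes from -0.06 to -0.12 for siGALNT1 in HA22T and from -0.04 to -0.15 between the lines on siControl arrays.

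Leaving out 1 array gave these ranges where the sign changed. In HA22T with siGALNT1 they were -0.28 to 0.37 for MUC12, -0.46 to 0.035 for MUC15 and -0.73 to 0.40 for MUC16, which was not counted there and gave 0.093 with normexp. In PLC5 they were -0.15 to 0.069 for MUC1, -0.25 to 0.10 for MUC4, -0.17 to 0.21 for MUC13, -0.37 to 0.24 for MUC15 and -0.42 to 0.0039 for MUC17. Between the lines MUC12 ran from -0.081 to 0.48 and MUC16 from -0.56 to 0.56 on siControl arrays, and MUC12 from -0.34 to 0.26 on siGALNT1 arrays. For the difference of effects MUC12 ran from -0.53 to 0.12 and MUC15 from -0.11 to 0.49. The causes of these changes were not tested. Signal limits the reading of MUC12, MUC16 and MUC17, some of whose probes were near background on many arrays, and 3 arrays per group limit all of it.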

Other observations

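Among the listed genes around the mucins, a few met the study's criterion of 1.5-fold and unadjusted p below 0.05 in HA22T with siGALNT1 without passing the test over all probes. MUC7, a small secreted mucin of saliva, was higher by 0.79, and GALNT8, another GalNAc-transferase, by 1.63. CREB3L1 was lower at -0.66, over 2 usable siGALNT1 arrays, and the hepatocyte marker AFP (alpha-fetoprotein) at -1.20. Each had an adjusted p of 0.997 (limma). In PLC5 no gene of these lists but GALNT1 met the criterion.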
